A study of Mus musculus with 8 samples.

Results

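The comparison described here is that of Oscar knockout cartilage with wild-type cartilage after sham surgery, in which the joint is operated on but the meniscus is left stable. It rests on 4 of the 8 libraries of the series: WT Sham and KO Sham at 2 weeks, and WT Sham and KO Sham at 4 weeks, chosen by their labels and paired by week. All mice were male and of C57BL/6 background, labelled as 10 weeks old. The KO mice lack Oscar in every cell of the body, so a difference can arise in any tissue. Each library held RNA combined from a pool of knee articular cartilages, and each combination of genotype, surgery and week had 1 library. The weeks therefore stood in for replicates: the p-values below measure the spread left after additive terms for group and week, and no condition was repeated. The 4 libraries after destabilization of the medial meniscus (DMM, a surgical model of osteoarthritis) entered the fit of the spread and 1 comparison near the end.

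OSCAR is a collagen-binding receptor of the immunoglobulin superfamily that was first described on osteoclasts and other myeloid cells. It has no signalling tail of its own and passes its signal through the adaptor FcR gamma (Fcer1g), whose ITAM motifs recruit the kinase SYK. In osteoclast precursors this costimulates the program that the ligand RANKL starts. In a joint, collagen is laid down by chondrocytes, osteoblasts and fibroblasts, and collagen exposed in a vessel wall is what platelets bind through the related receptor GPVI.

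Oscar was read in both WT Sham libraries and in neither KO Sham library, as the labels require. It had 48 expected counts (1.25 TPM, transcript share scaled to a fixed total per library) in WT Sham at 2 weeks and 42 expected counts (1.70 TPM) at 4 weeks, and 0 counts in KO Sham at both weeks. Against a floor of 3 counts per library, scaled by TMM, the WT Sham level was at least 12.5-fold higher at 2 weeks and at least 13.3-fold higher at 4 weeks. Ndufa3, which encodes a subunit of mitochondrial complex I, is the nearest gene, on the opposite strand. Their annotated starts lie 1216 bases apart on chromosome 7 of GRCm38, and both genes passed the test as lower in KO Sham. The 250 bases before each start are shown because the pair shares this short intergenic stretch; they are from RefSeq (GRCm38.p6), 5′ to 3′ on the strand of the gene, with the 20 bases next to the start in capitals. That of Oscar (minus strand) is chr7:3616158-3616407 and that of Ndufa3 (plus strand) is chr7:3617123-3617372, and 715 bases lie between them.
Oscar: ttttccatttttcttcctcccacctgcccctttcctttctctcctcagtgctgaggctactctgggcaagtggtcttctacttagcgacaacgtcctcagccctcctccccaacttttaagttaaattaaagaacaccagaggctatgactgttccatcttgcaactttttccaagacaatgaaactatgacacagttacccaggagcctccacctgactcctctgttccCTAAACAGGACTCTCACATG
Ndufa3: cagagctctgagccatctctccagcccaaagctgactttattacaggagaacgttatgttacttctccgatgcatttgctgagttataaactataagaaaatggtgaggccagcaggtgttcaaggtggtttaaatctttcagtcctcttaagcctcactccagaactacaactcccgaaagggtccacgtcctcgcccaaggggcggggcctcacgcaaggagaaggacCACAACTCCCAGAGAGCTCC

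The level of Ndufa3 was 157 TPM in WT Sham and 76.1 TPM in KO Sham at 2 weeks. At 4 weeks it was 223 TPM in WT Sham and 108 TPM in KO Sham. Both KO Sham libraries lay below both WT Sham libraries, as did those of 3.7% of all genes tested. Its log2 fold change was -1.14 ± 0.11 (SE; adjusted p = 0.0022, edgeR quasi-likelihood test), or 0.454-fold. After DMM surgery the KO against WT difference of Ndufa3 was -0.78 ± 0.11 (adjusted p = 0.0399), and the difference between the surgeries did not pass the test.

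The knee tissue carried much blood and marrow RNA, in KO and WT alike. Total expected counts were 18533609 in WT Sham and 13189181 in KO Sham at 2 weeks, and 14448052 and 14599125 at 4 weeks. The 4 genes of adult hemoglobin took 37.7% of TPM in WT Sham and 32.4% in KO Sham at 2 weeks, and 29.6% and 26.5% at 4 weeks. The 20 chondrocyte genes of a fixed list summed to 0.0885 to 0.231% of TPM in the 4 libraries, with their defining genes Col2a1 and Acan read in all of them. Because TPM add up to a fixed total, the median gene had a KO to WT log2 ratio of 0.28 by TPM at 2 weeks and -0.05 at 4 weeks, against 0.01 and 0.02 after TMM scaling. Fold changes below are from TMM-scaled counts, and TPM are given as levels. In bulk tissue, fewer cells of a type and less RNA per cell cannot be told apart. At 2 weeks all libraries carried the same lane number in their file names. At 4 weeks the WT and the KO libraries carried different ones, so lane and genotype cannot be told apart there. The lane number of the 2-week libraries did not recur at 4 weeks, so week and lane cannot be told apart either.

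Of 12538 protein-coding genes tested, 250 were higher (1.99%) and 23 lower (0.183%) in KO Sham than in WT Sham at an adjusted p under 0.05. The higher genes changed moderately: their median log2 fold change was 0.65, or 1.57-fold, with a range from 0.36 to 2.19, and 25 of them reached 2-fold. The lower genes had a median of -0.80, and 6 reached 2-fold. For comparison with the list counts below, 1453 of all genes tested were higher and 893 lower at an unadjusted p under 0.05 (edgeR). Of all genes tested 50.4% lay above 0. All 250 and all 23 had the same sign at both weeks, which the test itself favours, against 61.2% of all genes tested. Over 10903 genes with at least 50 counts in each sham library, the log2 ratios of the 2 weeks correlated at 0.43 (Pearson's r) and 0.37 (Spearman's rho). Genes are not independent replicates and each week's ratio rests on a pair of libraries. A test of whether the genotype difference depended on the week, with a term shared by the sham and DMM libraries, found 0 genes (0%) by edgeR. At an unadjusted p under 0.05 it found 913, and it was not run with another tool. The sham libraries alone leave no residual degree of freedom for such a term, so it does not test the sham difference by itself.

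These counts rested on the week term and on single libraries. Without the week term edgeR called 0 genes in either direction, with 729 higher and 248 lower at an unadjusted p under 0.05, and no other tool was run without it. DESeq2 called 156 higher and 28 lower genes, of which 136 and 15 were among those called by edgeR, and limma on log2(TPM + 1) called 86 and 11, of which 54 and 8 were shared. Leaving out KO Sham of 2 weeks left 1 higher (Gm14548) and 1 lower gene (Gm45837), and leaving out KO Sham of 4 weeks left 19 and 4. Without WT Sham of 2 weeks 168 higher and 13 lower genes were called, and without WT Sham of 4 weeks 471 and 422. Without WT DMM of 2 weeks there were 51 and 4, and without WT DMM of 4 weeks 52 and 4. Without KO DMM of 2 weeks there were 370 and 38, and without KO DMM of 4 weeks 375 and 36. In each of these alternatives each of the 250 and 23 genes kept the sign of their log2 fold change, so far as they were measured. The alternatives reuse the same libraries, and genes that passed already had equal signs at both weeks, so kept signs were favoured in advance.

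**Figure D1:**
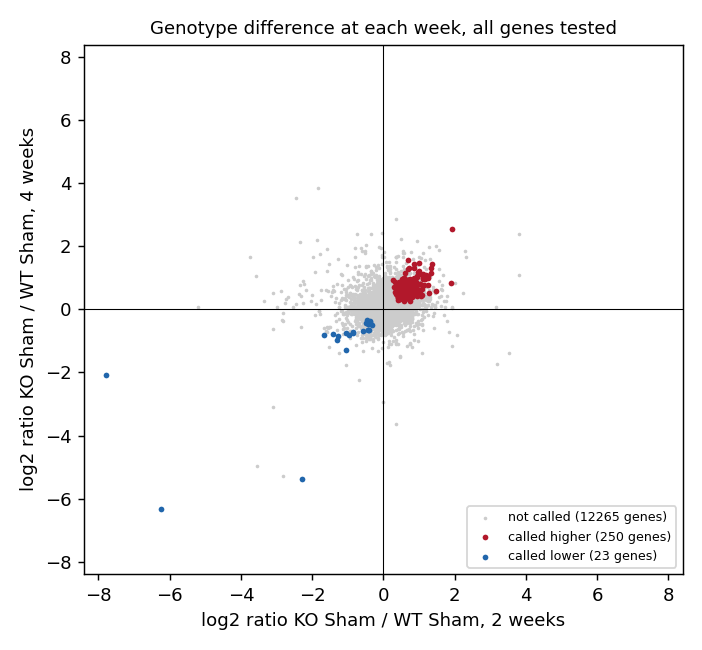
Log2 ratio of KO Sham to WT Sham at 2 weeks (horizontal axis) and at 4 weeks (vertical axis) for 12538 genes, each point 1 gene, from TMM-scaled counts with 0.5 added. The 250 genes called higher (red) all lie in the upper right part and the 23 called lower (blue) in the lower left part.

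A rule without a test, at least 2-fold in the same direction at both weeks, was met by 28 higher (0.223%) and 10 lower genes (0.0798%). Angptl7, Cpz, Aldh1l2, Sema3c, Sema3d and Clic5 were among the higher ones that also passed the test, and Oscar, Pira2, Eps8l1 and Gm45837 were those among the lower ones. Several others had few counts: with a prior count of 5 in place of 0.5, 14 higher and 4 lower genes remained past 2-fold. With TPM over 1 required in all 8 libraries the counts were 8 and 1. By the ratio of TPM they were 57 and 11.

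Of the 250 genes that rose 43 belong to 1 or more of the 38 gene lists used here, against 590 of all 12538 genes tested. The lists were chosen with earlier results of these data known, so these counts are a description. The leading genes are described first. Ddr2, a receptor tyrosine kinase that fibrillar collagen activates, was at 3.19 TPM in WT Sham and 6.81 TPM in KO Sham at 2 weeks. It was at 3.71 and 6.76 TPM at 4 weeks, so both KO Sham libraries lay above both WT Sham libraries, which held by TPM for 16.5% of all genes tested. Its log2 fold change was 0.87 ± 0.09 (SE; edgeR adjusted p = 0.0022), or 1.83-fold. Dermatopontin (Dpt), which binds decorin and helps collagen fibrils form, was at 11.6 and 31.6 TPM in WT Sham and KO Sham at 2 weeks, and at 11.03 and 20.7 TPM in the 4-week libraries. Its log2 fold change was 1.08 ± 0.12. Fibronectin (Fn1), the adhesive glycoprotein of the matrix, stood at 139 and 248 TPM at 2 weeks and, at 4 weeks, at 129 and 244 TPM, a 1.82-fold difference. The WT and KO levels of these genes did not overlap, which their choice by low p favours.

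Others among the 15 higher genes of lowest p also act in adhesion or matrix. Kindlin-2 (Fermt2), which activates integrins, rose 1.73-fold, and Cdh13, a cadherin held in the membrane by a lipid anchor, rose 2.18-fold. Sparcl1, a matricellular protein of the SPARC family, rose 1.86-fold. Tenascin-X (Tnxb), which binds collagen fibrils, rose 1.79-fold. Ccn4, a matricellular protein that responds to WNT signals, rose 1.71-fold. Ptprb, the endothelial phosphatase that dampens the receptor TIE2, rose 1.88-fold. Medag rose 2.18-fold and Tppp3, a tubulin-binding protein found in tendon sheath and synovial cells, rose 1.76-fold. Gm45140 and Gm45837, the latter lower in KO Sham, are gene models that overlap neighbouring genes, so their counts are uncertain.

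**Figure D2:**
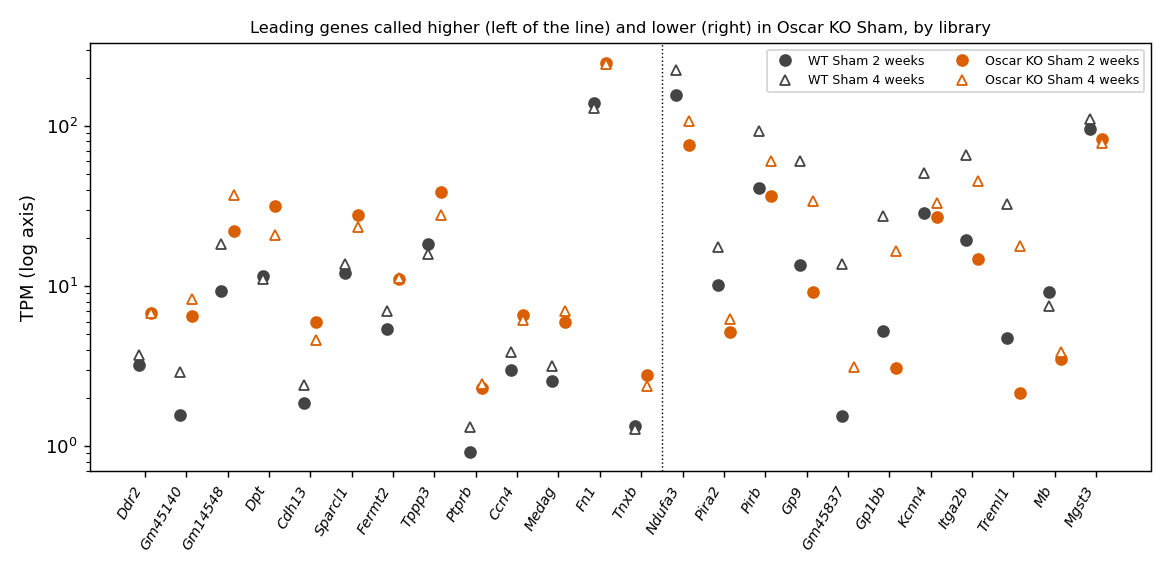
TPM (log axis) of genes named in the text that ranked first by p, higher and lower, 1 point per sham library; circles are 2 weeks, triangles 4 weeks, grey WT Sham and orange KO Sham. Oscar, at 0 in KO Sham, is left out, and Gm45837 has no point in KO Sham at 2 weeks, where it is at 0. In Ddr2 and Dpt both orange points lie above both grey ones, and in Ndufa3 both lie below.

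Fibroblast genes rose in 7 of 16 tested members, with none lower, and 15 of the 16 lay above 0. The list's median log2 fold change was 0.67, against 0.00 over all genes. Besides Dpt and Fn1, the 7 were Col1a2, Clec3b, Pdgfra, Postn and Lum. Col1a2, which encodes the second chain of type I collagen, was at 232 and 493 TPM in WT Sham and KO Sham at 2 weeks and, at 4 weeks, at 238 and 401 TPM, with a log2 fold change of 0.80 ± 0.14. Clec3b (tetranectin) stood at 5.36 and 15.9 TPM at 2 weeks and, at 4 weeks, at 6.21 and 8.59 TPM, so the 2-week pair was farther apart. Col1a1 had a log2 fold change of 0.72 ± 0.19 (adjusted p = 0.0762) and did not pass. The summed level of the list was 0.0992 and 0.189% of TPM in WT Sham and KO Sham at 2 weeks and 0.0971 and 0.152% at 4 weeks. Without KO Sham of 2 weeks 0 members passed, without KO Sham of 4 weeks 2, without either WT DMM library 3, and without either KO DMM library 11; the median stayed between 0.54 and 0.79.

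**Figure D3:**
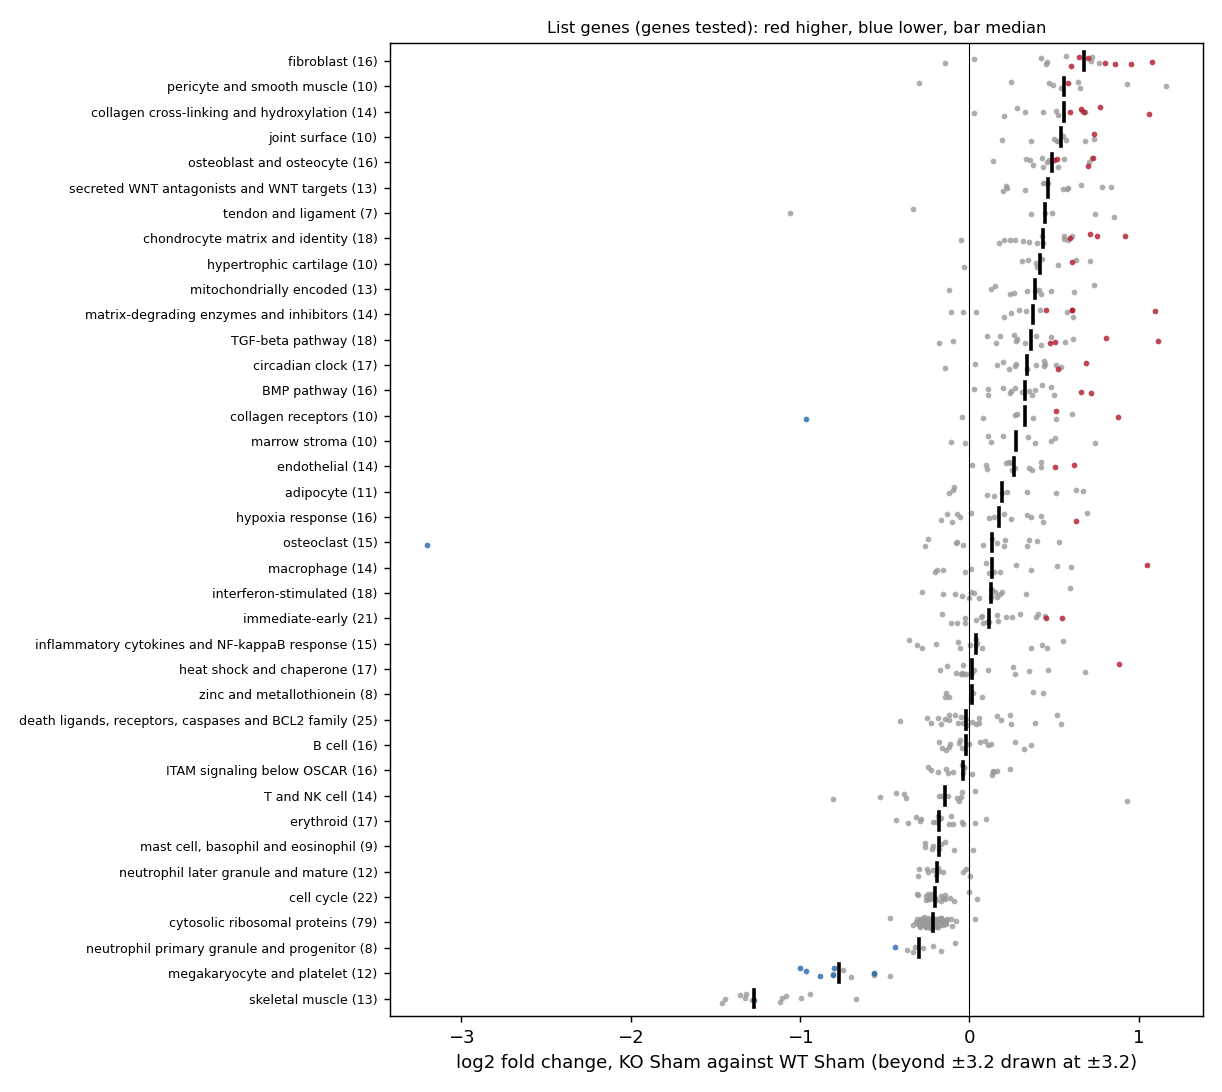
Log2 fold change, KO Sham against WT Sham, of each tested member (points, spread vertically for visibility) of 38 gene lists, with the number tested in brackets and the list median as a black bar. Red points were called higher and blue lower; the fibroblast median is 0.67, the platelet median -0.77 and the skeletal muscle median -1.27.

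Of 18 tested genes of chondrocyte matrix and identity, 4 rose and none fell, and 17 lay above 0 (median 0.43). Col11a1, a chain of the type XI collagen that nucleates cartilage fibrils, was at 12.2 and 26.8 TPM in WT Sham and KO Sham at 2 weeks and, at 4 weeks, at 12.3 and 19.9 TPM. Its log2 fold change was 0.92 ± 0.14 (adjusted p = 0.0122). Hapln1, the link protein that fixes aggrecan to hyaluronan, rose 1.64-fold, and Sox5, a partner of SOX9 in chondrocyte transcription, rose 1.69-fold from about 1 TPM. Col11a2 was the fourth.

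The genes most used to name cartilage varied more. Col2a1, the type II collagen chain, stood at 96.4 and 209 TPM at 2 weeks but at 76.6 and 90.6 TPM at 4 weeks, and its log2 fold change of 0.61 ± 0.35 did not pass (adjusted p = 0.373). Acan, the core protein of aggrecan, stood at 42.0 and 68.9 TPM at 2 weeks and, at 4 weeks, at 25.8 and 34.9 TPM (log2 fold change 0.56 ± 0.20, adjusted p = 0.181). For both genes the KO Sham level of 4 weeks lay below the WT Sham level of 2 weeks, so the groups overlapped across weeks. The list's calls fell to 0 without either KO Sham library and to 2 without WT Sham of 2 weeks, and its median ranged from 0.21 to 0.72 over the alternatives.

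At the joint surface 1 of 10 tested genes rose and all 10 lay above 0, with a median of 0.54. Abi3bp, a matrix protein of the ABI family binding partners, was at 7.88 and 14.7 TPM in WT Sham and KO Sham at 2 weeks and, at 4 weeks, at 5.04 and 8.80 TPM, a 1.66-fold difference. Lubricin (Prg4), the lubricant of synovial fluid made by superficial chondrocytes and synovial lining, stood at 571 and 810 TPM at 2 weeks and, at 4 weeks, at 410 and 838 TPM. Both KO Sham levels exceeded both WT Sham levels (16.5% of all genes), and the adjusted p was 0.0503. Of 10 hypertrophic cartilage genes 1 rose, Mmp13, and the median was 0.42. Col10a1, the collagen of the hypertrophic zone, had a log2 fold change of 0.63 ± 0.24 and did not pass (adjusted p = 0.202). Each list's count was 4 without WT Sham of 2 weeks, 2 or 3 without either KO DMM library, and 0 without any other library.

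Of 16 osteoblast and osteocyte genes 4 rose, among them Phex, Smpd3 and Sp7, and all 16 lay above 0 (median 0.49). Phex, an osteocyte endopeptidase that restrains FGF23, was at 4.51 and 7.69 TPM in WT Sham and KO Sham at 2 weeks and, at 4 weeks, at 4.18 and 7.86 TPM. Of 15 osteoclast genes none rose and only Oscar fell, and the median was 0.13, which stays the same with Oscar at its bound. Dcstamp, needed for osteoclast fusion, had a log2 fold change of 0.40 ± 0.27, and Atp6v0d2, a proton pump subunit, one of 0.34 ± 0.12. Itgb3 (-0.26 ± 0.13) and Car2 (-0.24 ± 0.11) lay below 0; both are also expressed in blood lineages. The 4 calls among osteoblast genes became 1 without either WT DMM library, 0 without either KO Sham library and 6 without either KO DMM library.

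Of 14 endothelial genes 2 passed the test, Cdh5 (VE-cadherin, 1.42-fold) and Tek (the angiopoietin receptor TIE2, 1.54-fold), all 14 lay above 0, and the median was 0.26. Tek was at 1.87 and 3.28 TPM in WT Sham and KO Sham at 2 weeks and, at 4 weeks, at 2.00 and 3.19 TPM. Of 10 pericyte and smooth muscle genes 1 rose, the pericyte regulator Rgs5, and the contractile actin Acta2 had a log2 fold change of 0.65 ± 0.23 that did not pass. No member of the marrow stroma, adipocyte or tendon lists passed edgeR's test, with 5 of 10, 0 of 11 and 3 of 7 members at an unadjusted p under 0.05, all higher; DESeq2 and limma also called none. Among these, Lepr (0.35 ± 0.13) and the stem cell factor gene Kitl (0.39 ± 0.18) had values above 0, as did Adipoq (0.22 ± 0.17), whose sign turned without WT Sham of 4 weeks (-0.07). The endothelial count was 0 by DESeq2 and by limma, and 0 without either KO Sham or either WT DMM library and 1 without WT Sham of 2 weeks. The pericyte count was 0 by limma, and 0 without WT Sham of 2 weeks or either KO Sham library, 2 without either KO DMM library and 3, with 1 member lower, without WT Sham of 4 weeks.

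Of 14 tested matrix-degrading enzymes and inhibitors 4 rose and none fell (median 0.37): Adamts1, Mmp2, Mmp13 and the inhibitor Timp2. Adamts1, an aggrecanase and versicanase, was at 0.92 and 2.05 TPM in WT Sham and KO Sham at 2 weeks and, at 4 weeks, at 1.29 and 2.62 TPM (log2 fold change 1.09 ± 0.17, adjusted p = 0.0121). Mmp2, a gelatinase of stromal cells, stood at 18.5 and 27.5 TPM at 2 weeks and, at 4 weeks, at 16.9 and 30.0 TPM, and Mmp13, the main collagenase of cartilage, at 65.7 and 99.9 and at 58.6 and 103 TPM. The groups did not overlap in these 3, which their choice among called genes favours. Of all genes tested 16.5% had both KO Sham libraries higher. Adamts5, the main aggrecanase of mouse cartilage, had a log2 fold change of 0.42 ± 0.16 (adjusted p = 0.193), and Timp3, an inhibitor of aggrecanases, one of 0.61 ± 0.20. Mmp3 (stromelysin-1) stayed near 1 TPM in all 4 libraries, at 0.04 ± 0.32, and its sign turned without WT Sham of 2 weeks (-0.25) and without KO Sham of 4 weeks (-0.22).

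Of 14 genes of collagen cross-linking and hydroxylation 5 rose and none fell, with all 14 above 0 (median 0.56). Loxl4 was at 1.14 and 3.35 TPM in WT Sham and KO Sham at 2 weeks and, at 4 weeks, at 1.08 and 2.41 TPM, a 2.09-fold difference. Lox and Loxl2, further lysyl oxidases, rose 1.60-fold and 1.70-fold, and the lysyl hydroxylase Plod2 and the collagen chaperone Serpinh1 were the others. Without KO Sham of 2 weeks 0 members of either enzyme list passed. Without KO Sham of 4 weeks 0 degrading and 1 cross-linking gene passed, and without either WT DMM library 1 and 1. Without WT Sham of 2 weeks 3 and 2 passed.

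In the TGF-beta pathway, a main driver of matrix production, 4 of 18 genes rose and none fell (median 0.36). Ltbp4 and Ltbp3, which store latent TGF-beta in the matrix, rose, Ltbp4 by 1.75-fold, as did Skil, a target that feeds back on SMADs. Among the ligands Tgfb3 had a log2 fold change of 0.56 ± 0.17 and did not pass. In the BMP pathway 2 of 16 genes rose, the type I receptors Bmpr1a (1.58-fold) and Acvr1 (1.64-fold), and the median was 0.33. No secreted WNT antagonist or WNT target passed among 13 by edgeR, DESeq2 or limma, though all 13 lay above 0 (median 0.46) and 5 had an unadjusted p under 0.05. Dkk1, an antagonist of the LRP coreceptors, had a log2 fold change of 0.84 ± 0.23 (adjusted p = 0.095), and Wif1 one of 0.46 ± 0.18. The TGF-beta count was 0 without KO Sham of 2 weeks and 2 without KO Sham of 4 weeks or either WT DMM library. The BMP count was 0 without these, 1 without either WT Sham library, and 0 by DESeq2 and limma.

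Of 12 tested genes of megakaryocytes and platelets 6 fell and none rose, and the median log2 fold change was -0.77. All 12 lay below 0 at both weeks, against 3579 of all 12538 genes tested. Treml1, a receptor of platelet granules, was at 4.74 and 2.14 TPM in WT Sham and KO Sham at 2 weeks and, at 4 weeks, at 32.4 and 17.8 TPM. Its log2 fold change was -0.998 ± 0.19 (adjusted p = 0.0267). Gp9 and Gp1bb, subunits of the platelet receptor for von Willebrand factor, fell to 0.572-fold and 0.542-fold. Gp9 stood at 13.5 and 9.18 TPM at 2 weeks and, at 4 weeks, at 60.1 and 33.9 TPM. Itga2b, the alpha chain of the fibrinogen receptor, stood at 19.3 and 14.8 TPM at 2 weeks and, at 4 weeks, at 65.9 and 45.2 TPM (log2 fold change -0.56 ± 0.10). Gp6, the platelet collagen receptor, stood at 0.38 and 0.19 TPM at 2 weeks and, at 4 weeks, at 6.02 and 3.30 TPM (log2 fold change -0.96 ± 0.21). Ppbp, the precursor of a platelet chemokine, stood at 33.8 and 21.6 TPM at 2 weeks and 353 and 209 TPM at 4 weeks, and did not pass (-0.81 ± 0.20, adjusted p = 0.0646).

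The levels of these genes differed more between the weeks than between the genotypes. In each of those named, both 4-week libraries lay above both 2-week libraries, and KO Sham was below WT Sham within each week. The weeks also differed in lane number, so a difference between weeks cannot be told apart from one between lanes. The summed level of the list was 0.0184 and 0.0118% of TPM in WT Sham and KO Sham at 2 weeks and 0.0957 and 0.0573% at 4 weeks. DESeq2 called 4 of the 12 lower and limma on log2(TPM + 1) 3. Without KO Sham or WT DMM of either week 0 passed, without WT Sham of 2 weeks 4 and without WT Sham of 4 weeks 8, and the median stayed between -1.05 and -0.56. Gp1bb overlaps Sept5 on the same strand, so its counts are uncertain.

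**Figure D4:**
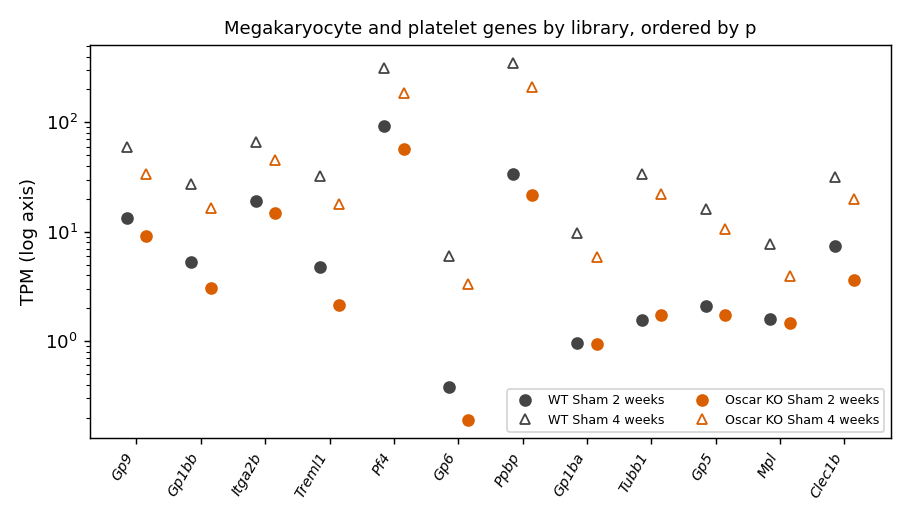
TPM (log axis) of the 12 megakaryocyte and platelet genes in the 4 sham libraries; circles are 2 weeks, triangles 4 weeks, grey WT Sham and orange KO Sham. Within 4 weeks every orange point lies below its grey point; at 2 weeks the TPM of Tubb1 is slightly higher in KO Sham.

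Promoters of 3 of the platelet genes that fell are shown because megakaryocyte genes are known to be driven by GATA1 and by ETS factors acting together. The 250 bases before the start were searched on both strands for AGATAA, a motif of the GATA factors. A second search was for GGAAGT, which ETS factors bind. The letters of the motifs do not overlap in these windows, and both were chosen after the values were seen. Capitals mark a match on either strand. The windows shown were picked for holding a match; those of Gp1bb and Treml1, which also fell, hold neither motif. The windows are from RefSeq (GRCm38.p6): Gp6 at chr7:4397745-4397994 (minus strand), Gp9 at chr6:87777820-87778069 (plus strand) and Itga2b at chr11:102469884-102470133 (minus strand).
Gp6: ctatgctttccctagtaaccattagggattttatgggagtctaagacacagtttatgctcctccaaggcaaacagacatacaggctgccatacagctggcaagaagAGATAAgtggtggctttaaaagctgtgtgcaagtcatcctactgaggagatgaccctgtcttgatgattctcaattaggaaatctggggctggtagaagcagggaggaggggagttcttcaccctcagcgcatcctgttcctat
Gp9: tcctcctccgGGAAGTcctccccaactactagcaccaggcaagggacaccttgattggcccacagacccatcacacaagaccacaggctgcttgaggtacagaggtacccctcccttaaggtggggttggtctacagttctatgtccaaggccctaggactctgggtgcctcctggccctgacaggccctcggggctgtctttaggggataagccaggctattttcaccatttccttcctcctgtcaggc
Itga2b: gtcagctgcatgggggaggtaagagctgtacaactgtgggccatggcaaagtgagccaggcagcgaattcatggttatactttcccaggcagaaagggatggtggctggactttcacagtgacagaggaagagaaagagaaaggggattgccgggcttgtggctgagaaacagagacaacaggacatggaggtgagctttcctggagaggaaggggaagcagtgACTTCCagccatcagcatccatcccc

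Of the 12 platelet genes 11 had a promoter in the table. AGATAA was in 2 of the 11 (18.2%), those of Gp5 and Gp6, against 9.99% of all 32851 promoter windows and 6.09% of the 12591 windows of genes tested. GGAAGT was in 5 of the 11 (45.5%), among them those of Gp9 and Itga2b, against 19.7% of all windows and 23.3% of those of genes tested. Both motifs were together in 1 of the 11, that of Gp5, and in 0 of the 6 genes that fell. A match describes these letters alone.

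No erythroid gene of 17 passed edgeR's test, DESeq2 or limma (2 at an unadjusted p under 0.05, both lower), and the median was -0.18. The alpha globin gene Hba-a1 was at 80480 and 66793 TPM in WT Sham and KO Sham at 2 weeks and, at 4 weeks, at 60785 and 48003 TPM (log2 fold change -0.43 ± 0.19, adjusted p = 0.252). Hbb-bs had a log2 fold change of -0.29 ± 0.22, which turned to 0.14 without WT Sham of 2 weeks, and the erythroid transcription factor Klf1 one of -0.32 ± 0.10. Among 8 genes of the primary neutrophil granule, made by promyelocytes, 1 fell, Prtn3 (proteinase 3), and the median was -0.30. All 8 lay below 0 at both weeks, against 3579 of all 12538 genes tested. Prtn3 was at 353 and 322 TPM in WT Sham and KO Sham at 2 weeks and, at 4 weeks, at 602 and 426 TPM (log2 fold change -0.44 ± 0.10, adjusted p = 0.0437). Elane (-0.37 ± 0.09, adjusted p = 0.0616) and Ctsg (-0.32 ± 0.09, adjusted p = 0.0851) did not pass. No gene of 12 of the later granules and mature neutrophils passed by edgeR, DESeq2 or limma, and none had an unadjusted p under 0.05. S100a9, a calprotectin subunit of neutrophils, stood at 49913 and 37589 TPM at 2 weeks but at 49875 and 51668 TPM at 4 weeks, and its sign turned without WT Sham of 2 weeks (0.02). The call of Prtn3 was lost by limma, with total counts, and without either KO Sham, either WT DMM or the 2-week WT Sham library, while without WT Sham of 4 weeks 4 of the 8 genes were called lower.

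Of 22 cell cycle genes none passed by edgeR, DESeq2 or limma, but 12 had an unadjusted p under 0.05, all lower, and the median was -0.20. Of all 12538 genes 893 were lower at that unadjusted threshold. Cdk1, the kinase of mitotic entry, had a log2 fold change of -0.31 ± 0.08 (adjusted p = 0.0848). Of 79 cytosolic ribosomal protein genes none passed edgeR's test (18 at an unadjusted p under 0.05, all lower), limma called none and DESeq2 called 1 lower. Their median was -0.22, made up of -0.37 at 2 weeks and -0.04 at 4 weeks. Without WT Sham of 4 weeks 57 of the 79 were called lower. The 13 mitochondrially encoded genes had a median of 0.39; they took 4.63 and 7.87% of TPM in WT Sham and KO Sham at 2 weeks and 4.00 and 4.65% at 4 weeks. None of them passed edgeR's test (7 at an unadjusted p under 0.05, all higher), and DESeq2 called 3 higher and limma on log2(TPM + 1) 3.

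Of 14 macrophage genes 1 rose: Vsig4, a complement receptor of resident macrophages, at 2.84 and 9.72 TPM in WT Sham and KO Sham at 2 weeks and, at 4 weeks, at 5.08 and 7.24 TPM (2.07-fold). Its call was lost without either KO Sham, either WT DMM or the 2-week WT Sham library, by DESeq2 and with its size factors in edgeR. Cd163, the hemoglobin scavenger receptor, had a log2 fold change of 0.52 ± 0.19 and did not pass. Of 16 B cell, 14 T and NK cell and 9 mast cell, basophil and eosinophil genes none passed by edgeR, DESeq2 or limma, with 2, 3 and 3 at an unadjusted p under 0.05.

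Of 16 genes of ITAM signalling none passed by edgeR, DESeq2 or limma, 2 had an unadjusted p under 0.05, and the median was -0.04. Fcer1g, the adaptor that OSCAR binds, was at 331 and 316 TPM in WT Sham and KO Sham at 2 weeks and, at 4 weeks, at 467 and 407 TPM (log2 fold change -0.24 ± 0.10, adjusted p = 0.221). Tyrobp, the related adaptor DAP12, had a log2 fold change of -0.23 ± 0.12.

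Other collagen receptors moved in both directions. Of 10 tested, 2 rose and 1 fell, and 8 lay above 0 (median 0.33). Ddr2 and Mrc2, an endocytic receptor that takes up collagen, rose 1.83-fold and 1.42-fold, and Gp6 fell to 0.513-fold. Itga10, the collagen-binding integrin chain of chondrocytes, was at 6.56 and 12.2 TPM in WT Sham and KO Sham at 2 weeks and, at 4 weeks, at 6.21 and 9.4 TPM (adjusted p = 0.0613). Of the 3 genes called, Ddr2 and Mrc2 are known from mesenchymal cells and Gp6 from platelets. The cells that the calls came from were not measured in this bulk tissue. Without KO Sham of 2 weeks none of the 3 was called, and without KO Sham of 4 weeks, either WT Sham or either WT DMM library 1 gene was called higher; Gp6 and Mrc2 were also lost by DESeq2 and limma, and Gp6 without KO Sham of 4 weeks, WT Sham of 2 weeks and either WT DMM library.

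Several of the lower genes lie near Oscar itself. Of the 23 lower genes 8 (34.8%) were on chromosome 7, where 7.68% of the genes tested lie. Both this count and the next include Oscar itself, whose call the knockout fixes in advance. Within 2 Mb of Oscar lay 6 of the lower genes, out of 57 genes tested there. Besides Oscar and Ndufa3 these were Pirb, Pira2, Gp6 and Eps8l1, and 2 genes in the same window rose, Gm14548 and Lilra6. Pirb and Pira2 encode paired immunoglobulin-like receptors, an inhibitory and an activating one, and Gm14548 and Lilra6 belong to the same family in the leukocyte receptor cluster. Their reads are split by RSEM between near-identical copies, so each value is uncertain.

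Pira2 was at 10.2 and 5.18 TPM in WT Sham and KO Sham at 2 weeks and, at 4 weeks, at 17.6 and 6.24 TPM (log2 fold change -1.18 ± 0.13). Gm14548 stood at 9.32 and 21.9 TPM at 2 weeks and, at 4 weeks, at 18.4 and 36.9 TPM (log2 fold change 1.02 ± 0.11). Pirb stood at 41.3 and 36.7 TPM at 2 weeks and 92.4 and 60.8 TPM at 4 weeks (-0.64 ± 0.10), and Lilra6 rose 1.60-fold. Within each week Pira2 and Pirb were lower and Gm14548 and Lilra6 higher in KO Sham. The KO against WT differences after DMM surgery were -1.15 for Pira2, -0.73 for Pirb, 0.81 for Gm14548 and 0.43 for Lilra6, and all but that of Lilra6 passed the test; over all genes 5 were lower (0.0399%) and 1 higher (0.00798%) after DMM.

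Eps8l1, an actin regulator of the EPS8 family, had 15 and 2 counts in WT Sham and KO Sham at 2 weeks and 65 and 1 at 4 weeks. The ratios of WT to KO were 5.88 (1.37 to 53) at 2 weeks and 61.8 (10.7 to 2480) at 4 weeks, with exact 95% intervals that cover counting error only. After DMM surgery Eps8l1 had 21 and 1 counts in WT and KO at 2 weeks and 31 and 0 at 4 weeks. The genes between Ndufa3 and Pirb, such as Tfpt, the next gene after Ndufa3 (-0.11 ± 0.17), Prpf31 (-0.28 ± 0.11) and Mboat7 (0.27 ± 0.08), did not pass; these 3 were named after their values were seen. Without KO Sham of 2 weeks 1 of the locus genes was called (Gm14548, higher), and without KO Sham of 4 weeks 3, all lower (Oscar, Ndufa3 and Pira2). The call of Eps8l1 was also lost without WT Sham of 4 weeks and without either WT DMM library. The flanking DNA of the knockout allele was not analysed here.

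**Figure D5:**
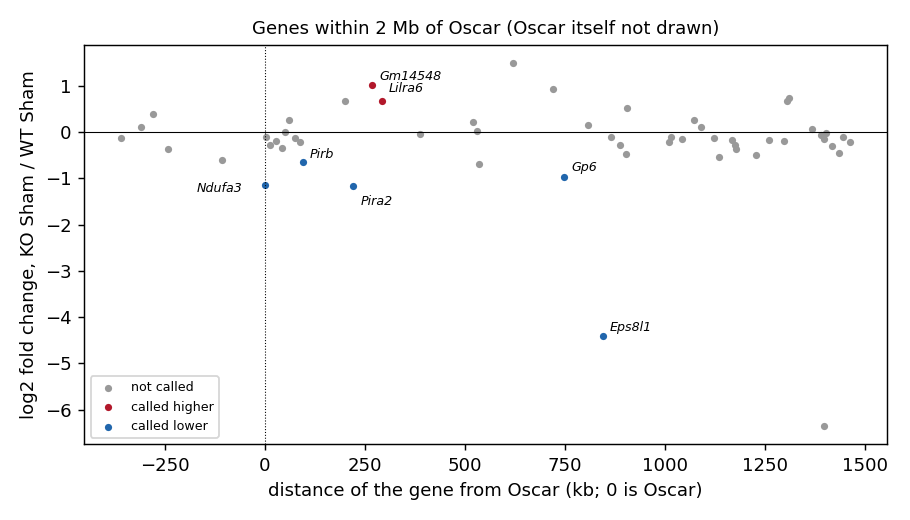
Log2 fold change, KO Sham against WT Sham, of the genes tested within 2 Mb of Oscar against their distance from it in kb; each point is 1 gene, red called higher and blue called lower, and Oscar itself is not drawn. Ndufa3 (-1.14), Pirb, Pira2, Gp6 and Eps8l1 (-4.41) are the blue points; the grey point below -6 is Gm44973 (-6.36), which did not pass and was at 0 TPM in 3 of the 4 sham libraries.

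All 13 skeletal muscle genes tested had fitted values below 0 (median -1.27), but the median ratio was -2.33 at 2 weeks and 0.32 at 4 weeks. Tnnc2, fast troponin C, was at 40.9 and 7.24 TPM in WT Sham and KO Sham at 2 weeks and, at 4 weeks, at 16.3 and 18.0 TPM, and Myh4, a fast myosin, at 6.69 and 0.67 and at 2.26 and 4.54 TPM. WT Sham of 2 weeks was the highest of the 4 libraries for both genes. The test of a genotype difference that depends on the week has a term shared by sham and DMM libraries, so it does not address the sham libraries alone. It did not pass for Tnnc2 (edgeR adjusted p = 0.707) or Myh4 (adjusted p = 0.696). Myoglobin (Mb) alone fell by the test, from 9.19 to 3.52 TPM at 2 weeks and from 7.49 to 3.85 TPM at 4 weeks (log2 fold change -1.27 ± 0.27, adjusted p = 0.0385). Without WT Sham of 2 weeks the signs of Tnnc2 (0.14) and Myh4 (0.90) turned and 0 members were called; without WT Sham of 4 weeks all 13 were called lower, without either KO DMM library 2, and without any other library 0.

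The genes of cell death and inflammation that osteoarthritis studies follow did not pass. Of 25 death ligands, receptors, caspases and BCL2 family members none passed by edgeR, DESeq2 or limma (6 at an unadjusted p under 0.05, 3 in each direction), and the median was -0.02. Of all 12538 genes 1453 were higher and 893 lower at that unadjusted threshold. Tnfsf10, the death ligand TRAIL, was at 0.72 and 1.36 TPM in WT Sham and KO Sham at 2 weeks and, at 4 weeks, at 1.15 and 1.51 TPM (log2 fold change 0.54 ± 0.17, adjusted p = 0.132). Tnfrsf11b, the decoy receptor osteoprotegerin, stood at 17.7 and 32.0 TPM at 2 weeks and, at 4 weeks, at 17.5 and 22.8 TPM (0.52 ± 0.24, adjusted p = 0.271). Both KO Sham levels lay above both WT Sham levels for each of the 2 genes, as for 16.5% of all genes tested, and neither passed the adjusted threshold. Bcl2l2 (0.39 ± 0.12) and the TNF receptor adaptor Tradd (-0.41 ± 0.13) had the next values. Of 15 inflammatory genes none passed by any of the 3 tools (2 at an unadjusted p under 0.05), with Ptgs2 (COX-2) at 0.46 ± 0.24 and Il1b at -0.31 ± 0.14.

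Among stress and rhythm genes single members passed. Per1 and Nr1d2, repressors of the circadian clock, rose 1.61-fold and 1.44-fold out of 17 clock genes (median 0.34). Per1 was at 4.57 and 9.79 TPM in WT Sham and KO Sham at 2 weeks and, at 4 weeks, at 7.41 and 10.6 TPM. Klf4 (1.37-fold) and Ccn1 (1.46-fold) rose out of 21 immediate-early genes, whose median was 0.12. Hspb8, a small heat shock protein, rose 1.85-fold, alone among 17 chaperone genes (median 0.02). Ddit4, an inhibitor of mTORC1 that stress induces, rose 1.55-fold, alone among 16 hypoxia genes, and Epas1 (HIF-2 alpha) had a log2 fold change of 0.43 ± 0.12 (adjusted p = 0.0891). None of 18 interferon-stimulated and 8 zinc and metallothionein genes passed by edgeR, DESeq2 or limma, with 0 and 2 at an unadjusted p under 0.05. By limma no clock or immediate-early gene was called, and the call of Ddit4 was lost with DESeq2 size factors in edgeR. Without KO Sham of 2 weeks no member of these lists was called; without KO Sham of 4 weeks none was, and without either WT DMM library only Per1 was.

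The genotype difference after sham surgery was set beside that after DMM surgery, fitted with the same week term on other libraries. Of the 250 genes higher in KO Sham, 238 had a KO against WT difference below 0 after DMM, against 6406 of all 12538 genes tested. The median of the 250 after DMM was -0.27. The DMM comparison itself called 2 of the 250, 1 lower and 1 higher. The interaction of genotype and surgery passed the test for 231 of the 250 and for 14 of the 23 lower genes, against 657 of 12538 genes (5.24%). The genes were chosen on the sham part of this difference, so these counts are a description. The interaction was tested in the main fit alone, without the alternatives used for the sham comparison. For Ddr2 the difference was 0.87 after sham and -0.34 after DMM. For the platelet list the median was -0.77 after sham and 0.14 after DMM, and for the fibroblast list 0.67 and -0.31. The locus genes Ndufa3, Pira2, Pirb, Gm14548 and Lilra6 kept their direction after both surgeries. Gp6, also near Oscar, did not: its difference was -0.96 after sham and 0.24 after DMM, where it did not pass.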

How the data were processed

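RNA of articular cartilage was sequenced from stranded mRNA libraries, and 8 libraries (4 after sham surgery) were deposited. The authors aligned trimmed reads to GRCm38 and quantified genes with RSEM; the submitters' notes name FastQC 0.11.8, STAR 2.6.0a, RSEM 1.2.17 and a human build, while all 52636 gene identifiers are mouse. The deposited expected counts are estimates that divide shared reads between genes, and were rounded here. The TPM the authors deposited add up to a fixed total per library. The labels give Trizol and a column kit for extraction, the paper a kit alone.

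Of the identifiers 52403 matched GENCODE M21 (GRCm38). edgeR 4.0.16 (R 4.3.3) quasi-likelihood tests used all 8 libraries, TMM scaling, the 4 genotype-by-surgery groups and week, leaving 3 residual degrees of freedom, over 12538 protein-coding genes with TPM over 1 in at least 1 library, with Benjamini-Hochberg adjustment at 0.05. The week term was kept because the labels give it as a shared time point. Deviations of same-week libraries from their group means correlated at 0.43 to 0.52 for all pairs of groups. Lane numbers also differed between the weeks, so these correlations cannot separate the time point from the lane. Ratios within a week are from TMM-scaled counts with 0.5 added. Intervals and floors (3 counts) cover counting error only, and totals of 13189181 to 18533609 counts per sham library set the precision. DESeq2 1.42.0 and limma 3.58.1 were alternatives, with Python 3.11.15, pandas 2.3.3, numpy 2.4.6 and matplotlib 3.10.9.

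Tested on simulated data over 12538 genes for KO Sham against WT Sham, the fit recovered 62.7% of genes changed 1.5-fold, 95.5% of those changed 2-fold and 100% of those changed 4-fold, and 5.49% of its calls were unchanged genes. The simulated counts took the fit's own spread per gene and an additive week effect. Genes were drawn independently, and only genes averaging at least 50 counts were changed. Shifts shared by many genes of a library were not simulated, so these shares are not error rates of the calls above.

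Named genes were Oscar, the 15 of lowest p in each direction among called genes with at least 50 counts in the higher genotype at both weeks, up to 4 members per list with the largest fold change at a mean of at least 1 TPM, 11 genes that the study followed, and called genes within 2 Mb of Oscar; others are said to be chosen later or are members that passed. Members and lists were chosen with earlier results of these data known. The planned motif search needed 3 calls in a clock, immediate-early, heat shock or interferon list, which none reached. Of the 11 followed genes 10 passed the filter and Nos2 did not. Alternatives changed the scaling, filter, tool, libraries and week term. Some members are not reported here by name and stay in the counts.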

Additional observations from a re-analysis of the deposited data

Results flagged for a closer look

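The difference between the genotypes depended on the surgery for many of the genes named, by the test of the interaction itself (edgeR quasi-likelihood, adjusted p under 0.05). The interaction was tested in the main fit alone, so its calls were not checked with other tools, without the week term or without single libraries. Each value here is the KO against WT log2 difference after DMM minus that after sham, so a negative value means that the gene was relatively higher in KO after sham. Among the leading higher genes the values were Ddr2 -1.22, Dpt -1.54, Cdh13 -1.42, Sparcl1 -1.18, Fermt2 -0.93, Tppp3 -1.31, Ptprb -1.30, Ccn4 -1.16, Medag -1.15, Fn1 -1.20, Tnxb -1.27 and Gm45140 -2.07. Among genes of connective tissue, cartilage, bone and vessels they were Col1a1 -1.29, Col1a2 -1.27, Clec3b -1.20, Col11a1 -1.28, Hapln1 -0.96, Sox5 -0.94, Abi3bp -0.87, Phex -0.86, Smpd3 -1.16, Atp6v0d2 -0.70, Cdh5 -0.83, Tek -0.92 and Rgs5 -0.89. For matrix enzymes and the TGF-beta and BMP pathways they were Mmp13 -0.92, Mmp2 -1.20, Lox -0.87, Loxl2 -1.24, Loxl4 -1.66, Ltbp4 -1.08, Tgfb3 -1.09, Bmpr1a -0.89 and Acvr1 -1.14. The others below 0 were Vsig4 -1.39, Mrc2 -0.75, Itga10 -0.81, Klf4 -0.58, Ccn1 -0.70, Hspb8 -1.15 and Nr1d2 -0.65.

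Values above 0 came from genes with a negative KO against WT difference after sham, all of which passed the test as lower except Klf1 and Cdk1. For platelet genes they were Gp6 1.203, Treml1 1.04, Gp1bb 1.204, Gp9 1.06 and Itga2b 0.63. For the rest they were Mb 1.82, Klf1 0.74, Cdk1 0.63, Kcnn4 0.68, Mgst3 0.80 and Gm45837 2.38; Kcnn4, a potassium channel of blood cells, and Mgst3, a microsomal glutathione transferase, fell in KO Sham. Many of these genes were named because of the sham difference, which is 1 part of the interaction, so a large value is partly fixed by that choice. Col1a1, Atp6v0d2, Tgfb3, Itga10, Klf1 and Cdk1 passed the interaction test without passing that of the sham comparison.

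In 8 lists the median difference had opposite signs at the 2 weeks, and the difference of the medians was not tested. Gene by gene, the term for a genotype difference that depends on the week passed for 0 of 12538 genes (edgeR, 913 at an unadjusted p under 0.05). That term is shared by sham and DMM libraries and does not test the sham difference alone, and no other tool was run. The median ratio at 4 weeks minus that at 2 weeks was 2.65 for skeletal muscle, 0.70 for T and NK cells and 0.24 for B cells. It was 0.16 for inflammatory cytokines and NF-kappaB response genes, 0.12 for ITAM signalling, 0.12 for chaperones, 0.089 for death and BCL2 family genes and -0.028 for zinc genes.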

How the results depend on the processing

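The counts of genes higher and lower in KO Sham (250 and 23) depended on the week, the libraries and the tool. Without the week term as replicate block they were 0 and 0 with all 8 libraries (729 and 248 at an unadjusted p under 0.05) and 0 and 0 with the 4 sham libraries alone (532 and 59). The 4 sham libraries alone, which leave 1 residual degree of freedom, gave 692 and 102. Total counts without a composition factor gave 381 and 14, DESeq2 156 higher, limma on log2(TPM + 1) 86 and 11, limma on log2(TPM + 0.1) 90 and 11, and no filter 54 lower. Total counts moved the median of all genes to 0.07 and limma to 0.09 and 0.11. Leaving out 1 library, where a lone library is assumed to vary like the other groups, gave 1 to 471 higher and 1 to 422 lower genes. The 2-fold rule at both weeks (28 and 10) gave 57 higher by TPM ratio, 43 higher by total counts, 14 and 4 with a prior count of 5, and 8 and 1 with TPM over 1 in all 8 libraries.

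Of 98 genes named and compared over 20 alternatives, the 57 called ones kept their sign in each, which their choice by the test favours. The sign of 6 others turned when 1 library was left out, with ranges of -0.066 to 0.55 for Adipoq, -2.68 to 0.14 for the log2 fold change of Tnnc2, -3.14 to 0.90 for the log2 fold change of Myh4, -0.66 to 0.14 for Hbb-bs, -0.60 to 0.015 for S100a9 and -0.25 to 0.36 for Mmp3, which was also -0.22 without KO Sham of 4 weeks. Of 38 list medians 28 kept their sign in all 20 alternatives. The cause of these changes was not tested. Depth limits the genes under about 50 counts, Oscar and Eps8l1 among them.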
